A study of Mus musculus with 8 samples.

Results

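Notch signalling was described here by 10 genes, the receptors Notch1, Notch2 and Notch3, the ligands Jag1, Jag2 and Dll1, the receptor-modifying enzyme Lfng, and the target genes Hes1, Hes5 and Hey2. They were read from the probe sets of a whole-genome mouse array whose annotation named one of these genes and no other, which gave 18 probe sets of the 34945 that named a single gene, and 10 genes of 18193. RNA came from the soft tissue of the normal cochlea in CBA/CaJ, an inbred mouse strain with good hearing. Per the labels this took in the spiral ligament, the organ of Corti and the modiolus. Each of the 8 arrays holds RNA from the pooled ears of a different mouse, and every mouse was given urethane (300 mg/kg) and perfused with saline beforehand. The labels give no treatment group, age or sex, so the data hold levels and their spread between mice and no contrast between groups. Precision is limited by the 8 arrays.

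Notch receptors are membrane proteins that are cut when a ligand of the Jagged or Delta family on a neighbouring cell binds and pulls on them. The freed intracellular part enters the nucleus, joins the DNA-binding protein RBPJ and switches on repressors of the HES and HEY families. In the developing organ of Corti this exchange keeps cells next to a nascent hair cell from becoming hair cells themselves, and Jag1 marks the prosensory region from which hair cells and supporting cells arise. In blood vessels Notch1 acts in endothelial cells and Notch3 in pericytes and smooth muscle cells, so a whole-cochlea sample mixes several sources of these transcripts.

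Values below are MAS5 signals in arbitrary units. A probe set was called detected when its signal exceeded, on all 8 arrays, the array's background threshold, which was set by the signals of olfactory and vomeronasal receptor genes and genes of unrelated organs and ranged from 50.1 to 74.1. A signal also depends on how well its probes bind, so the genes are not ranked against each other. Of the 10 genes 8 were detected (80%), against 62.2% of all 18193 genes. Of their 18 probe sets 11 were detected (61.1%), against 54.9% of all probe sets that named 1 gene. The 2 genes that were not detected were the ligand Dll1 and the target Hes5. In a bulk sample a low signal from few cells of a type and a low signal from little RNA per cell cannot be told apart.

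**Figure D1:**
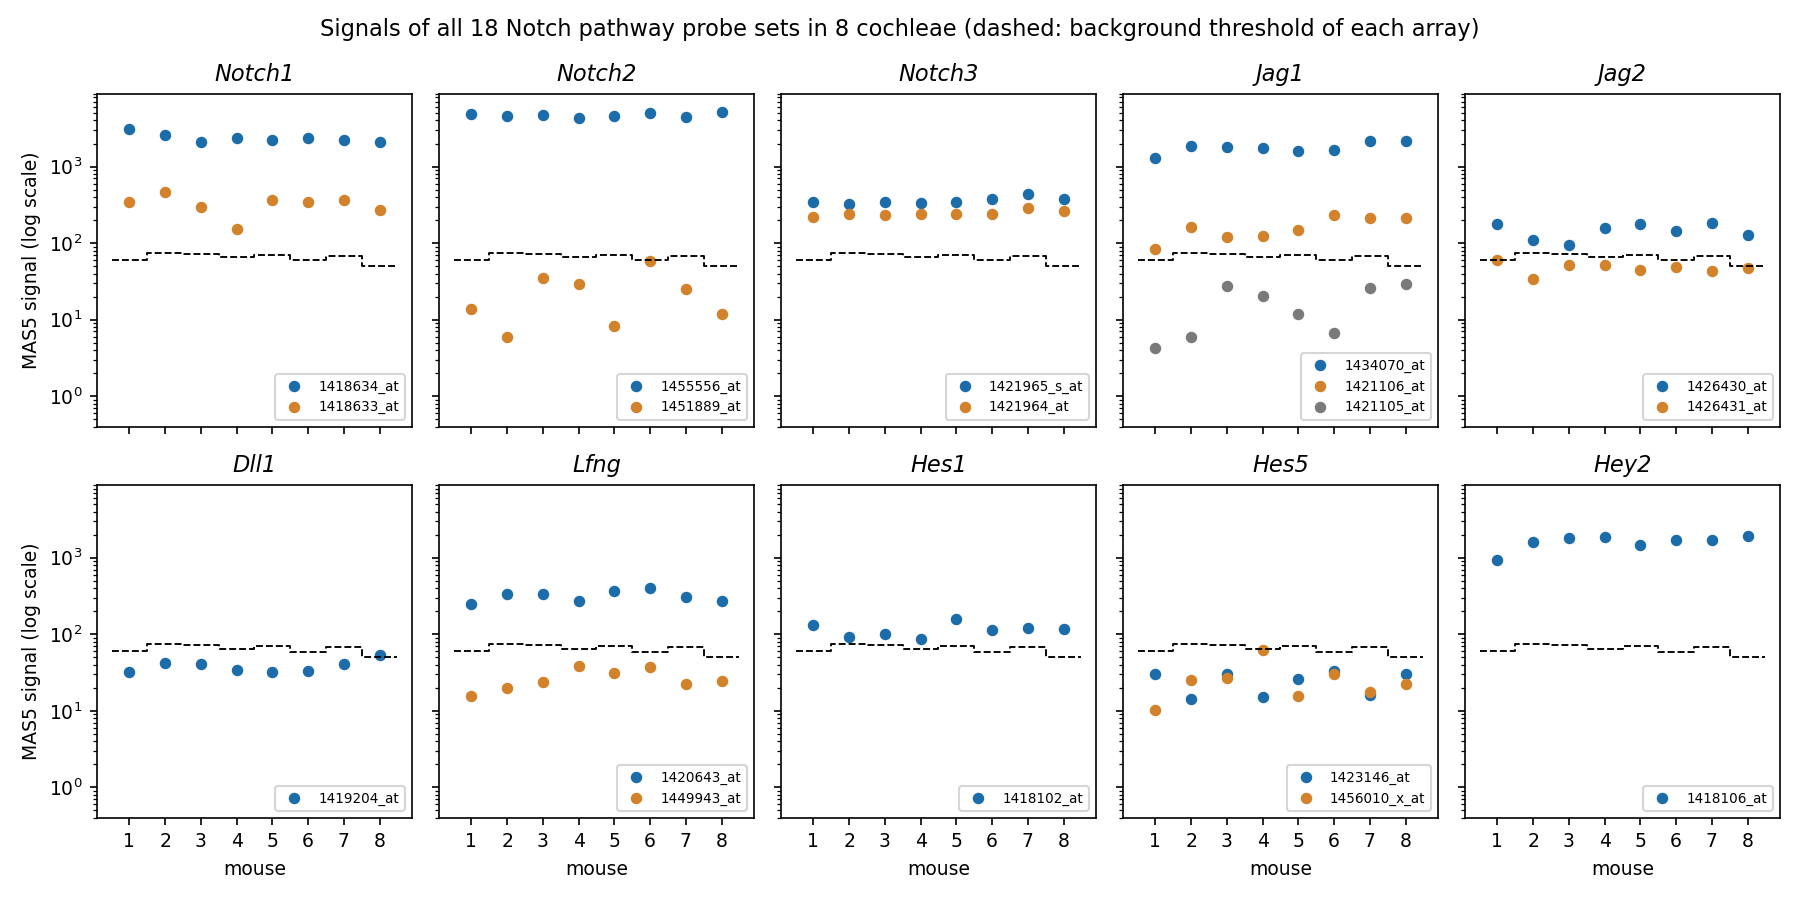
MAS5 signal on a log axis of each of the 18 probe sets in each of the 8 mice, 1 panel per gene and 1 colour per probe set, with the background threshold of each array as a dashed line. The probe sets of Dll1 and Hes5 lie below the line, except Dll1 in mouse 8, and the brightest probe set of each of the other 8 genes lies above it in every mouse.

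The arrays were alike in general, and mouse 1 was most often the highest or the lowest mouse. The log2 signals of any pair of arrays correlated at r = 0.945 to 0.960 across probe sets, and 0 of 28 pairs of arrays were identical. Mouse 1 was the highest mouse for 34.2% of the detected genes and the lowest for 24.0%, whereas each other mouse was the highest for 8.17% to 10.7% and the lowest for 4.07% to 19.3%. By size it did not stand alone. In mouse 1, 27 detected genes lay more than 2-fold above the mean of the other mice and 104 below. In mouse 6 these counts were 29 and 114, and in mouse 5 they were 85 and 4. The ratio of 3′ to 5′ signal, a measure of RNA integrity, was 1.54 in mouse 1 against 1.39 to 1.52 in the other mice for Gapdh, and 2.03 against 1.86 to 2.23 for beta-actin. Marker genes of the labelled tissue were counted next, against the 62.2% of all genes that were detected. Detected were 10 of 12 measured supporting cell genes (Epyc, 11399 ± 723, SD, n = 8), 9 of 9 spiral ligament fibrocyte genes (Coch, 14226 ± 1333), 6 of 6 strial marginal cell and 6 of 8 strial intermediate cell genes, 12 of 14 neuronal and 9 of 12 Schwann cell genes. Hair cell genes were detected for 9 of 15 members, with Pou4f3, Atoh1 and Cdh23 above the threshold on no array. Of other cell types, 13 of 18 endothelial, 9 of 14 pericyte and smooth muscle, 7 of 7 osteoblast, 12 of 12 macrophage, 4 of 10 neutrophil and myeloid precursor, 2 of 11 cell division and 5 of 12 central nervous system genes were detected. A count near the share of all genes, as for hair cell and pericyte genes, does not by itself show the cell type.

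The 3 receptors were detected on every array. Notch1 (Entrez 18128, probe set 1418634_at) ranged from 2065 through a median of 2298 to 3113, with a mean of 2373 ± 341 (SD, n = 8). Mouse 1 had the highest value and mouse 2 the next (2566), and the other 6 lay between 2065 and 2364. The second Notch1 probe set, 1418633_at, was also detected, between 154.5 and 464 with a median of 348, and here mouse 2 was highest and mouse 4 lowest. Its log2 signals followed those of the first probe set at r = 0.24 (exact permutation p = 0.516, adjusted p = 0.731) and rho = 0.33 (exact permutation p = 0.428), and at r = -0.24 without mice 1 and 2.

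Notch2 (Entrez 18129), a receptor widely present in epithelia and connective tissue, varied little between mice. Its probe set 1455556_at measured 4301 to 5126 with a median of 4667 and a mean of 4712 ± 289.9 (SD, n = 8). The highest mouse stood 1.19-fold above the lowest, and the log2 SD of 0.09 lay at the 29.0th percentile of the 566 detected genes of similar signal. The other Notch2 probe set, 1451889_at, gave 6.0 to 58.3 and exceeded the threshold on no array.

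Notch3 (Entrez 18131), the receptor of mural cells of small vessels, was detected by both of its probe sets. Probe set 1421965_s_at measured 327 to 442 with a median of 346, and 1421964_at measured 219 to 285 with a median of 239.95. Mouse 7 was highest in both. Together the probe sets correlated at r = 0.83 (exact permutation p = 0.0212, adjusted p = 0.133) and rho = 0.51 (exact permutation p = 0.197), and at r = -0.03 without mice 7 and 8, so their agreement rested on those mice. In mouse 7 the first probe set read 442, against 349 ± 19.0 in the other mice (SD, n = 7), which was 0.34 higher on the log2 scale, and 2.72% of detected genes deviated further upward in that mouse. Without mouse 7 the log2 SD of Notch3 fell to 0.08, against 0.14 over all mice.

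By the brightest probe set, Jag1 lay at 21.5 to 43.6 times the threshold of its array and Jag2 at 1.31 to 2.94 times, and Dll1 exceeded it on 1 array. Jag1 (Entrez 16449), the ligand of supporting cells and arterial endothelium whose loss in mice disturbs the formation of the sensory patches, had 3 probe sets. Probe set 1434070_at measured 1290.5 to 2187 with a median of 1793 (mean 1793 ± 287, SD, n = 8). Mouse 1 was lowest, mice 7 and 8 were highest at 2129 and 2187, and the others lay between 1619 and 1874. Probe set 1421106_at measured 82.7 to 234 with a median of 155, at 1.38 to 4.24 times the threshold, again lowest in mouse 1. The third, 1421105_at, gave 4.3 to 29.1 and exceeded the threshold on no array. The 2 detected Jag1 probe sets correlated at r = 0.72 (exact permutation p = 0.0420, adjusted p = 0.184) and rho = 0.50 (exact permutation p = 0.216), and at r = 0.21 without mice 1 and 8.

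Jag2 (Entrez 16450), which hair cells express during development, was detected by 1426430_at, at 95.1 to 181 with a median of 149.5 (mean 146 ± 32.5, SD, n = 8). Its lowest value was 1.31 times the threshold of its array, and it was not detected with the threshold at percentile 99 of the background signals. Mice 2 and 3 were low (111 and 95.1), and mice 1, 5 and 7 were high (176, 178 and 181). The second Jag2 probe set, 1426431_at, lay at 34.0 to 59.6 and exceeded the threshold on no array. Dll1 (Entrez 13388), the Delta ligand of nascent hair cells and neuroblasts, had a single probe set, 1419204_at, with signals of 32 to 54.0 and a median of 37.7. It exceeded the threshold in mouse 8 alone, at 1.08 times the threshold of 50.1, the lowest of the 8 arrays. That signal of 54.0 lay below the threshold of every other array. Probe set agreement could be tested for 3 genes, Notch1, Notch3 and Jag1, and 0 of them passed at an adjusted p of 0.05 (exact permutation test, Benjamini-Hochberg over 4809 genes), against 5.12% of all genes tested. At an unadjusted p of 0.05, 2 of the 3 passed, against 25.1% of all genes tested.

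Lfng (Entrez 16848), a glycosyltransferase that adds sugars to Notch receptors in the Golgi and changes which ligands they answer to, was detected by 1420643_at at 251.5 to 404 with a median of 317 (mean 317 ± 52.6, SD, n = 8). Mice 5 and 6 were highest (366 and 404), and mice 1, 4 and 8 were lowest (251.5, 268 and 272). The second probe set, 1449943_at, lay at 15.8 to 38.2, above the threshold on no array.

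Among the target genes, Hey2 lay at 15.5 to 38.3 times the threshold of its array, Hes1 at 1.24 to 2.35 times, and Hes5 below it. Hey2 (Entrez 15214), a repressor found in pillar cells of the organ of Corti and in arterial endothelium, had 1 probe set, 1418106_at. Its signals were 929.8 in mouse 1, 1594 in mouse 2, 1826 in mouse 3, 1881 in mouse 4, 1456 in mouse 5, 1726 in mouse 6, 1729.6 in mouse 7 and 1921 in mouse 8 (mean 1633 ± 322, SD, n = 8). Mouse 1 lay far below the others, which did not fall under 1456. Hes1 (Entrez 15205), a repressor active in many progenitor and supporting cells, was detected by 1418102_at at 85.5 to 157 with a median of 116 (mean 115 ± 22.9, SD, n = 8). Its lowest value was 1.24 times the threshold of its array, and it too was not detected at percentile 99. Mouse 5 was highest and mice 2 and 4 were lowest (92.0 and 85.5). Hes5 (Entrez 15208), the HES gene most restricted to Notch-active supporting cells and neural progenitors, gave 14.4 to 33.0 (median 27.95) on 1423146_at and 10.4 to 61.4 (median 23.65) on 1456010_x_at. Neither probe set exceeded the threshold on any array.

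The start regions of these genes are shown because some members carry the letters of a known binding site of the pathway's DNA-binding protein there. All members were chosen as parts of the pathway, Hes5 and Hey2 as its target genes, so the matches are not independent of the choice of genes. Promoters from RefSeq (build GRCm38.p6, 250 bases before to 50 after the start) were matched by symbol for 9 of the 10 genes, with 10 start sites among them. Hes1 was not matched. The letters GTGGGAA, a form of the RBPJ binding site, were searched on both strands. They occurred in the promoters of Hes5, Lfng and Hey2, and in none of the windows of the receptors and ligands. This is 3 of 10 member promoters (30%), against 5 of 66 promoters of the other pathway genes (7.58%) and 6.38% of all 32851 promoters. The 5 belonged to Aph1a, Hes7, Psen2, Rbpjl and Spen. The difference between these shares was not tested. The letters began 83 bases before the start of Hes5, with another match on the opposite strand at 226, and 109 bases before the start of Lfng. In Hey2 they began 4 bases before the start and ran across it, with another match on the opposite strand at 207. Of the members with these letters Hey2 and Lfng were detected and Hes5 was not. The E-box CACGTG, a palindrome that HES and HEY repressors can bind, was found in the Lfng window alone among the members, against 7.15% of all promoters, and there its last 3 letters overlapped the RBPJ letters. The sequences follow 5′ to 3′ along the gene's strand, with GTGGGAA or its reverse complement in capitals. Hes5 lies at chr4:154960673-154960972 (+), Lfng at chr5:140607091-140607390 (+) and Hey2 at chr10:30842734-30843033 (-).
Hes5: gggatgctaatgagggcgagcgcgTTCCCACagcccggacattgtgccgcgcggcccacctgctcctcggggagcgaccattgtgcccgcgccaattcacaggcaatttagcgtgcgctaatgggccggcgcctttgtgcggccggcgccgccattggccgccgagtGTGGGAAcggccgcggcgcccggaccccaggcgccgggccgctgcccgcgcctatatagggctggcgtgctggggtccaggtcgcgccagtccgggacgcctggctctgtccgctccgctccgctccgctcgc
Lfng: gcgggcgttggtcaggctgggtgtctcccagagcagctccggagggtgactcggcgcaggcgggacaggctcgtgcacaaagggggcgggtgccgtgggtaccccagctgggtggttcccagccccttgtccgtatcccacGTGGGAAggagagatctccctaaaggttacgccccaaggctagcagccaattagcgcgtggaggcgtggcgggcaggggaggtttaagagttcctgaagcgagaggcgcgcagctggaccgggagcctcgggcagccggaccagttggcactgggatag
Hey2: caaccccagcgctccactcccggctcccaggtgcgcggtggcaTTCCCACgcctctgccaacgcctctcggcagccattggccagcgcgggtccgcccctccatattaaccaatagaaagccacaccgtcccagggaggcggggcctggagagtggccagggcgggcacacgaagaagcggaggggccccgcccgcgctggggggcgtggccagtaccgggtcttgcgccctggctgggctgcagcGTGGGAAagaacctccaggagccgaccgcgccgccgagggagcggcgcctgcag

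Hey2 had the highest SD for its signal among the detected members over the 8 mice. The log2 SD of the 8 genes ran from 0.09 (Notch2) to 0.34 (Jag2 and Hey2) with a median of 0.24, against a median of 0.18 over all 11320 detected genes. Without mouse 1 the medians were 0.16 for the members and 0.15 for all detected genes. Within its signal class Hey2 stood at the 97.2nd percentile of SD (class median 0.15), Jag1 at the 87.6th, Notch1 at the 78.3rd, Jag2 at the 74.9th, Lfng at the 62.4th, Hes1 at the 56.9th and Notch3 at the 17.0th. Without mouse 1 the SD was 0.14 for Hey2 and 0.11 for Notch1, against 0.34 and 0.19 over all mice.

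**Figure D2:**
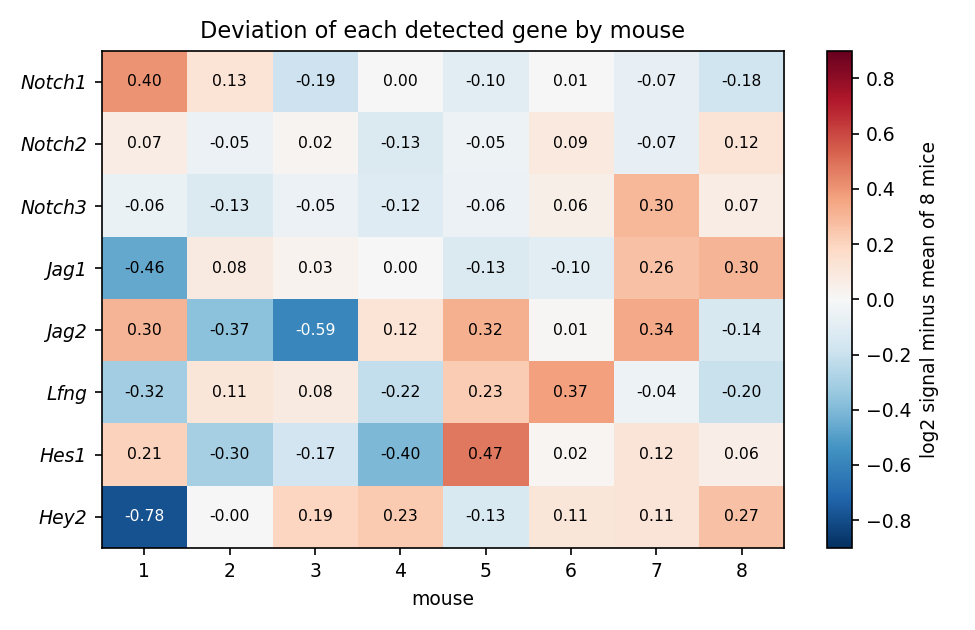
Log2 signal of each detected gene (rows) in each mouse (columns) minus the gene's mean over the 8 mice; red is above and blue below the mean, and the number in each cell is the value. Read by the brightest probe set, Hey2, Jag1 and Lfng are lowest in mouse 1, where Notch1 is highest.

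The members did not move one way in mouse 1. Read by the brightest probe set, Hey2, Jag1 and Lfng had their lowest signal there and Notch1 its highest. Jag2 lay above the mean of the other mice (176 against 142 ± 32.5). Hes1 (131 against 113 ± 23.8), Notch2 and Notch3 differed from the mean of the other mice by less than the SD of those mice. Hey2 measured 929.8 in mouse 1, against 1733 ± 164 in the other mice (SD, n = 7), a log2 difference of -0.89, and 1.46% of detected genes lay further below the other mice in mouse 1. Jag1 measured 1290.5 in mouse 1, against 1865 ± 219 in the others (log2 difference -0.52, with 7.40% of detected genes further below). Lfng measured 251.5 in mouse 1, against 326 ± 49.2 in the others (log2 difference -0.36). Notch1 measured 3113 in mouse 1, against 2267 ± 178 in the others (log2 difference 0.46), and 11.4% of detected genes lay further above. The second Notch1 probe set, 1418633_at, did not share this: it read 347 in mouse 1, near its median of 348, and was highest in mouse 2 (464). With the mean of all detected probe sets the log2 difference of Notch1 was 0.32. These are values of a single animal with no test, and mouse 1 was also the highest or the lowest mouse more often than the others across all detected genes. The part of tissue composition and RNA handling in them was not tested.

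Among the 28 pairs of detected members, 2 had an absolute r of at least 0.8 over the 8 mice (7.14%), against 6.55% of all pairs of detected genes. Hey2 and Jag1 varied in the same direction, at r = 0.84 (exact permutation p = 0.0138) and rho = 0.71 (exact permutation p = 0.0576). Hey2 and Notch1 varied in opposite directions, at r = -0.85 (exact permutation p = 0.0281) and rho = -0.62 (exact permutation p = 0.115). These p-values are two-sided and not adjusted for the 28 pairs. Both relations rested on mouse 1. Without it r was 0.52 for Hey2 with Jag1 and -0.35 for Hey2 with Notch1, and 0 of the 28 pairs reached 0.8, against 4.23% of all pairs of detected genes. Without the 2 mice farthest from the median of the partner gene, r was 0.32 for Jag1 (mice 1 and 8 left out) and -0.14 for Notch1 (mice 1 and 2 left out).

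**Figure D3:**
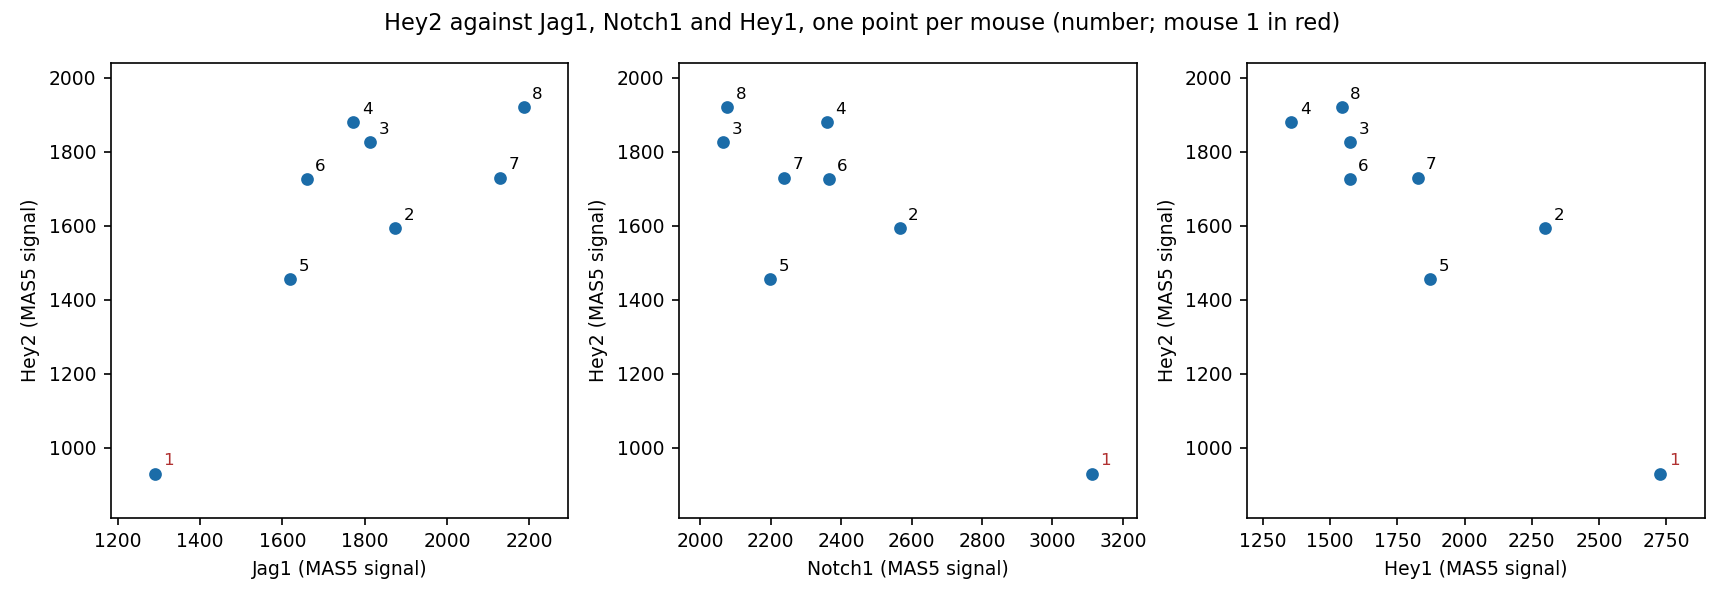
MAS5 signal of Hey2 (vertical axes) against Jag1, Notch1 and Hey1 (horizontal axes), 1 point per mouse with its number. Mouse 1, in red, has the lowest Hey2 signal in all panels, with the lowest Jag1 signal and the highest Notch1 and Hey1 signals. The axes do not start at 0.

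The other pathway genes were counted from a list of 64 genes in 8 roles, of which 59 had a probe set of their own. Of these 46 were detected (78.0%), against 62.2% of all genes, 4 were above the threshold on some arrays and 9 on none. The machinery that cuts the receptor was detected for 8 of 8 measured genes. It included Furin (4127 ± 271), which cleaves the receptor on its way to the surface, and Psenen (4980.3 ± 238), a subunit of gamma-secretase. The nuclear complex was detected for 5 of 6 genes, among them the acetyltransferase Kat2b (6354 ± 394) and the coactivator Snw1 (3737 ± 241), and the exception was the coactivator Maml2 (17.2 ± 9.36, above the threshold on no array). Rbpj itself, the DNA-binding partner of all the receptors, measured 1933 to 2229 with a median of 2133.

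Receptor glycosylation genes were detected for 4 of 5 members, including the fucosyltransferase Pofut1 (1602 ± 81.9) and the glycosyltransferase Eogt (1450.2 ± 268), and the fringe gene Mfng (79.3 ± 20.9) exceeded the threshold on 7 arrays. For all genes the share detected was 62.2%. Ligand endocytosis genes were detected for 4 of 6, including the ubiquitin ligase Mib1 (2549 ± 402) and the epsin Epn2 (2021 ± 299.6). Neurl1b (65.3 ± 25.1) was above the threshold on 5 arrays and Neurl1a (33.8 ± 14.2) on none. Of the genes listed under corepressors 5 of 6 were detected, including Ctbp1 (5480.5 ± 589) and Hdac1 (1329.8 ± 134), and Rbpjl (23.8 ± 11.02) was above the threshold on no array. Of the genes listed under negative regulators 10 of 11 were detected, including the kinase Aak1 (5619 ± 340.5) and the ubiquitin ligase subunit Fbxw7 (2173 ± 174). Numbl (85.4 ± 14.3) exceeded the threshold on 7 arrays. The roles are headings of the list, and the direction in which each gene acts on the pathway was not tested.

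Of the receptors and ligands outside the 10 genes 3 of 7 were detected, and no difference between roles was tested. The neuronal cell-surface proteins Cntn1 (2378 ± 261) and Dner (1797 ± 172), both described as atypical Notch ligands, were detected, as was the endothelial receptor Notch4. The Delta ligands Dll4 (32.2 ± 13.6) and Dll3 (3.81 ± 2.50) and the Delta-like protein Dlk1 (19.4 ± 5.83) were above the threshold on no array, and Dlk2 (70.8 ± 24.2) on 4. Of the other HES and HEY family genes and their Groucho partners 7 of 10 were detected, including Tle4 (3289 ± 304) and Tle3 (3226 ± 399). The HES genes Hes2 (3.29 ± 3.99), Hes3 (17.7 ± 6.99) and Hes7 (15.9 ± 9.05) were above the threshold on no array.

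**Figure D4:**
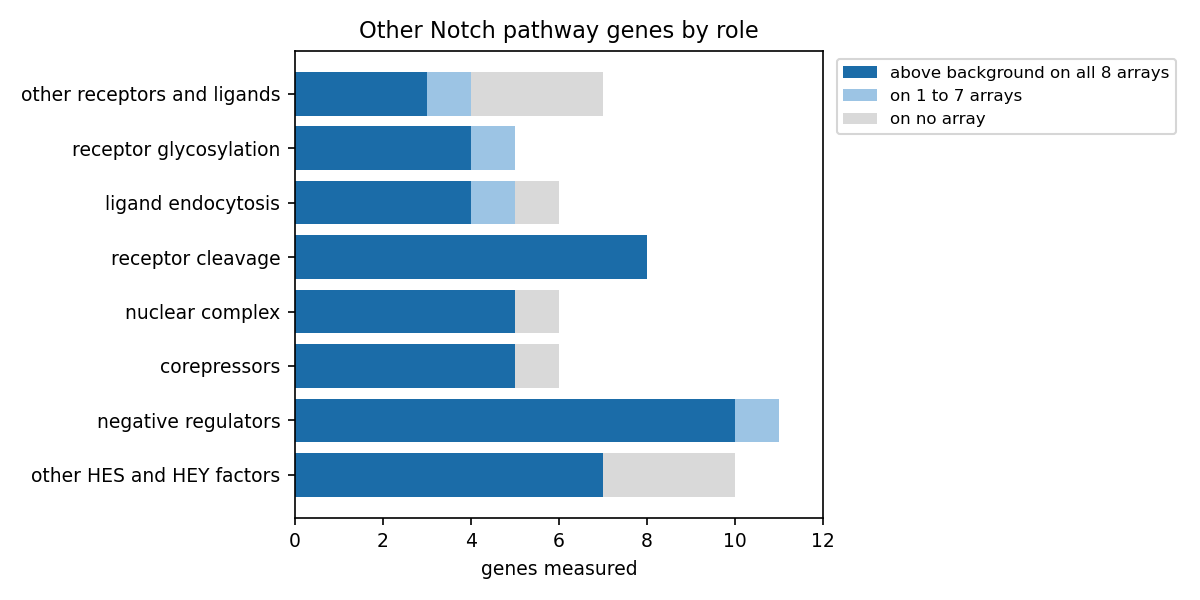
Number of measured genes of each role among the other Notch pathway genes (horizontal axis), split into genes above the background threshold on all 8 arrays, on 1 to 7 arrays, and on no array. All 8 receptor cleavage genes are in the first class, against 3 of 7 other receptors and ligands.

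Among the other target genes, Hey1, a close relative of Hey2 that is also a Notch target and was singled out here after its values were seen, measured 1356 to 2729 with a median of 1699.6, and it was highest in mouse 1 (2729), where Hey2 was lowest. Mouse 2 was next (2299), and the other 6 lay between 1356 and 1871. Hey1 read 2729 in mouse 1, against 1720.4 ± 309.8 in the others (SD, n = 7), a log2 difference of 0.68. As a description with no test, r of Hey2 and Hey1 was -0.86 over the 8 mice and -0.74 without mouse 1, and 14.5% of all detected genes had an r with Hey2 at least as far from 0. Heyl, the third HEY gene, was detected at 643 to 968 and was also highest in mouse 1.

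Other pathway genes lay on either side in mouse 1. The protease Adam10, which makes the ligand-dependent cut of the receptor, measured 2675 in mouse 1, against 4233 ± 335 in the other mice, Mib1 measured 1853 in mouse 1, against 2648 ± 310.5, and the coactivator Ep300 measured 1192 in mouse 1, against 1944 ± 138 (SD, n = 7 for the other mice). On the other side, the protease Adam17 measured 1831 in mouse 1, against 1532 ± 77.1, the gamma-secretase subunit Aph1b 1989.8 in mouse 1, against 1553 ± 89.6, and Epn2 2684 in mouse 1, against 1927 ± 145. These 6 were picked after their values were seen. Of the 46 detected pathway genes 15 were lowest in mouse 1 (32.6%) and 19 highest (41.3%), against 24.0% and 34.2% of all detected genes. Nrarp, a feedback inhibitor that Notch itself induces, measured 361 to 527, lowest in mouse 1 and highest in mouse 7.

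The members were next set against the scores of 13 marker lists, each the mean log2 deviation of a list's detected markers in a mouse. Of the 104 relations of the 8 detected members 0 passed at an adjusted p of 0.05 (exact permutation test, Benjamini-Hochberg over 147160 relations of all detected genes), and 0% of all relations did. With 8 mice no exact p can fall below 1 in 40320, so an adjusted call needs many relations near that limit at once. The 0 calls therefore do not show that relations are absent. At an unadjusted p of 0.05, 7 of the 104 passed (6.73%), against 7.77% of all relations, so the members stood near the background.

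Lfng ran with the osteoblast score with and without mouse 1. The relation had r = 0.86 (exact permutation p = 0.00945, adjusted p = 0.483) and rho = 0.81 (exact permutation p = 0.0218), r = 0.85 without mice 3 and 6 and r = 0.82 without mouse 1. The summed signal of the 7 measured osteoblast genes ranged from 5391 to 11944 between mice. The osteoblast score was not alone in this. With the macrophage score Lfng had r = 0.69 (exact permutation p = 0.0682, adjusted p = 0.678) and rho = 0.74 (exact permutation p = 0.0458). There r was 0.87 without mouse 1 and 0.50 without mice 4 and 8. Lfng also ran against the spiral ganglion neuron score, at r = -0.77 (exact permutation p = 0.0149, adjusted p = 0.518) and rho = -0.64 (exact permutation p = 0.0962), and at r = -0.32 without mice 1 and 6. None of these relations passed the adjusted test.

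The endothelial score was highest in mouse 1 and lowest in mouse 8. Hey2 ran against it at r = -0.90 (exact permutation p = 0.00317, adjusted p = 0.413) and rho = -0.74 (exact permutation p = 0.0458). Jag1 did so at r = -0.89 (exact permutation p = 0.00650, adjusted p = 0.460) and rho = -0.90 (exact permutation p = 0.00456), and Notch1 ran with it at r = 0.89 (exact permutation p = 0.00511, adjusted p = 0.442) and rho = 0.64 (exact permutation p = 0.0962). Without mice 1 and 8 these r values were -0.56 for Hey2, -0.46 for Jag1 and 0.53 for Notch1, and without mouse 1 alone they were -0.69, -0.71 and 0.67. With the mean of all detected probe sets in place of the brightest, r was 0.55 for Notch1 and -0.66 for Jag1. With the strial marginal cell score, also highest in mouse 1, Notch1 correlated at r = 0.82 (exact permutation p = 0.0375, adjusted p = 0.615) and rho = 0.43 (exact permutation p = 0.299), and Jag1 at r = -0.82 (exact permutation p = 0.0215, adjusted p = 0.558) and rho = -0.48 (exact permutation p = 0.243). These relations depended on mouse 1, without which r was 0.26 for Notch1 and -0.46 for Jag1. Without mice 1 and 7 r was 0.41 for Notch1 and 0.0042 for Jag1. With the mean of all detected probe sets and all 8 mice it was 0.24 for Notch1 and -0.86 for Jag1. Notch3 ran against the strial marginal cell score by rank, at rho = -0.86 (exact permutation p = 0.0107), with r = -0.58 (exact permutation p = 0.156, adjusted p = 0.784). Jag1 ran with the hair cell score by rank, at rho = 0.86 (exact permutation p = 0.0107), with r = 0.58 (exact permutation p = 0.127, adjusted p = 0.759). Without mouse 1 these r values were -0.98 and 0.70. The summed signal of the 18 endothelial genes ranged from 8042 to 10590 between mice, and of the 12 supporting cell genes from 37962 to 43200. The supporting cell score passed the test with neither Hey2 nor Jag1, at r = -0.21 and rho = -0.38 for Hey2 (exact permutation p = 0.556 and 0.360, adjusted p of r = 0.924) and r = 0.15 and rho = 0.24 for Jag1 (exact permutation p = 0.731 and 0.582, adjusted p of r = 0.960).

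**Figure D5:**
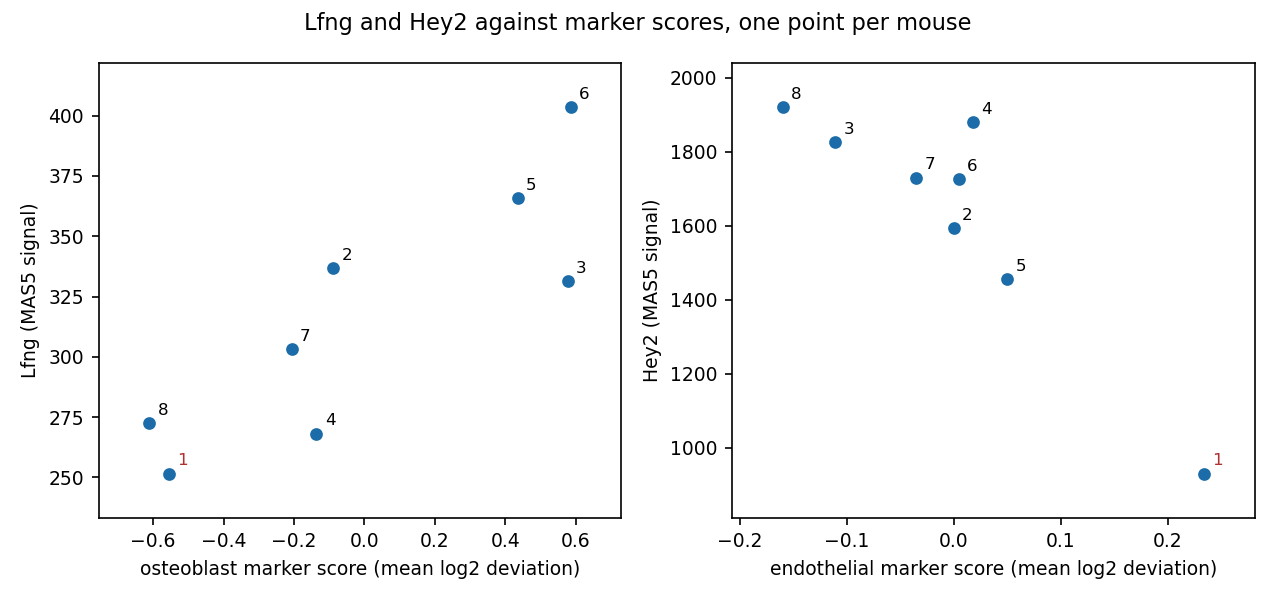
MAS5 signal of Lfng against the osteoblast marker score and of Hey2 against the endothelial marker score (mean log2 deviation of the detected markers), 1 point per mouse with its number and mouse 1 in red. Lfng is highest in mice 5 and 6, which with mouse 3 have the 3 highest osteoblast scores, and Hey2 is lowest in mouse 1, where the endothelial score is highest. The axes of the signals do not start at 0.

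The genes whose pattern over the 8 mice was most like that of a member were named as a description, with no test. For Hey2 200 genes had r of at least 0.95, led by Lrrfip1 and Rhoc (r = 0.99 each), and for Notch1 54, led by Ppm1l (r = 0.995) and Sh3bgrl3 (r = 0.992). Jag1 had 8 such genes, led by Tmem50b and Clmn (r = 0.98 each). Notch2 (Nhsl1, r = 0.97, then Med15, r = 0.93), Notch3 (Brwd1, r = 0.952, then Mindy2, r = 0.948), Jag2 (Crls1, r = 0.95, then Tor1b, r = 0.94) and Lfng (Krt10, r = 0.96, then A930007A09Rik, r = 0.947) had 1 each, and Hes1 had 0 (H2-Aa and 2810410L24Rik, r = 0.92 each). These counts were not set against those of all detected genes, and their dependence on mouse 1 was not tested. Without mouse 1 the log2 SD fell from 0.34 to 0.14 for Hey2 and from 0.19 to 0.11 for Notch1.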

How the data were processed

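Total RNA of cochlear soft tissue was amplified, biotin-labelled and hybridised to mouse whole-genome arrays, per the labels' protocols. Signal intensities on a linear scale were deposited for every probe set. They were made with MAS5, per the submitters' processing notes, in a version not given in the sources used here, and their trimmed mean (2% off each end) was 500 on all 8 arrays. Neither detection calls nor scan batches were used here.

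Of 45101 probe sets 34945 named 1 gene. A gene was read by its brightest probe set, falling back on an _x_at probe set for genes without another kind, and its signal was put on the log2 scale after raising values below 1 to 1. Each array's background threshold was taken at percentile 95 of the signals of 165 probe sets for 134 olfactory and vomeronasal receptor genes and genes of unrelated organs, of which 2 (1.49%) were themselves called detected. Correlations were tested two-sided by exact permutation over the 40320 orders of the mice, with Benjamini-Hochberg adjustment over all genes or relations of the array. Percentiles of SD were taken within 20 classes of mean signal. The scripts were tested on simulated data and ran in Python 3.11.15 with scipy 1.17.1, matplotlib 3.10.9, pandas 2.3.3 and numpy 2.4.6.

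The members, the pathway list and the marker lists were chosen with earlier results of these data known. Text names every member, the 2 brightest genes of each pathway role and up to 4 that were not detected, and the 2 genes most like each detected member. Marker lists are given by their counts, with 1 of the brightest genes named for 2 of them. Pou4f3, Atoh1, Cdh23, Hey1, Heyl, Notch4, Rbpj, Adam10, Adam17, Aph1b, Ep300 and Nrarp were named after their values were seen. Aph1a, Psen2 and Spen were named for the RBPJ letters in their promoters. Alternatives covered the scaling, the log scale, the threshold, the probe set, the filter on low values and each array left out. The labels name 8 mice, and p-values give how often a reordering of these samples yields at least as strong a correlation. The spread between the samples holds the spread of dissection and assay as well.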

Additional observations from a re-analysis of the deposited data

Results flagged for a closer look

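In 2 of the 11 detected member probe sets (18.2%) 1 mouse stood apart from the other 7 by a gap above 0.526 of the whole range, Dixon's critical value for 8 samples. Chance gives about 1 in 20. Read by the brightest probe set of each gene, 2 of the 8 detected members had such a mouse (25%), against 12.7% of all detected genes. For Hey2 on 1418106_at the gap was 0.618 of the range, with mouse 1 low at 929.8. For Notch3 on 1421965_s_at it was 0.541, with mouse 7 high at 442, and on the second Notch3 probe set mouse 7 was also highest but its gap was 0.357.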

How the results depend on the processing

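With 8 arrays of 1 group, these values describe 8 animals. Detection gave 8 of 10 members under each alternative run but the 99th percentile threshold, which gave 6, with Jag2 and Hes1 lost. The counts of adjusted calls were 0 for probe set agreement and 0 for marker scores under each alternative run. The exact test gives no p below 1 in 40320 with 8 mice, or below 1 in 5040 with 1 mouse left out. Adjusted over so many relations, a marker score call was hard to reach in any run, so these 0 counts do not measure stability. Adjusted p ranged from 0.0879 to 0.688 for the agreement of the Jag1 probe sets, from 0.0955 to 0.577 for Notch3, from 0.505 to 0.926 for Notch1, from 0.386 to 0.948 for Hey2 with the endothelial score and from 0.382 to 0.908 for Lfng with the osteoblast score. The median log2 SD of the members was 0.16 to 0.26 with 1 mouse left out, lowest without mouse 1. Member pairs with an absolute r of at least 0.8 numbered 0 to 3 with 1 mouse left out, and 0 with the mean of all detected probe sets in place of the brightest. That mean gave r = 0.77 for Hey2 with Jag1 and r = -0.62 for Hey2 with Notch1. It also gave a log2 difference in mouse 1 of -0.77 for Jag1 and 0.32 for Notch1. Agreement calls at an unadjusted p of 0.05 numbered 0 without mouse 7, without mouse 8 and by Spearman's rho. Without mouse 1 the log2 SD of Notch1 was 0.11, against 0.19 over all mice. With 1 mouse left out or another setting, no direction was reversed, but with the 2 farthest mice left out r changed sign for the Notch1 probe sets (-0.24), the Notch3 probe sets (-0.03) and Jag1 with the strial marginal cell score (0.0042). The comparison of mouse 1 with the other mice and the relation of Hey2 with Hey1 under other settings were added after seeing the data. The causes were not tested. No paired analysis was possible because there is 1 group.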
